A study of Mus musculus with 11 samples.

Results

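The epithelial chemokines of skin and mucosa are a group of genes for secreted attractants made mainly by epithelial cells, chosen here by name along with their receptors: Ccl20, Ccl25, Ccl27a, Cxcl14, Ccl28, Ccr6, Ccr9 and Ccr10. Of these 8 genes, 7 were among the 754 genes of the table, and Ccr10 is not analysed here. The values came from skin of the nape of 11 female mice aged 8 to 10 weeks at use, taken after week 7 of a bone marrow transplant model of chronic graft-vs.-host disease. Every recipient had been given 850 cGy and then 5000000 bone marrow cells with 2000000 splenocytes. The 3 syngeneic and 3 allo-WT recipients were C57BL/6j mice, whereas the 5 allo-MCd recipients were B6.Cg-KitW-sh/HNihrJaeBsmGlliJ mice. That strain carries the W-sh allele of Kit in its germline and lacks mast cells. The methods give C57BL/6J donors for the syngeneic group and LP/J donors for both allogeneic groups, while the sample labels give LP/J for all 11 mice. These sources thus disagree on the syngeneic donor. The paper reports no chronic graft-vs.-host disease in syngeneic recipients, and the group is taken as syngeneic here. From each mouse, 100 ng of RNA was hybridized to the NanoString Myeloid Innate Immunity panel, in which color-coded probes count RNA molecules without amplification. Values are counts that the authors normalized in nSolver, called normalized counts below.

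Chemokines bind receptors on leukocytes and set where these cells enter a tissue. Ccl20 is made by keratinocytes and other epithelial cells when IL-1, TNF or IL-17 act on them, and its receptor Ccr6 is carried by Th17 cells, B cells and immature dendritic cells. Ccl27 is a chemokine of keratinocytes that draws skin-homing T cells through Ccr10, and Ccl28 is the mucosal ligand of the same receptor. Ccl25 is known from thymus and small intestine, and Ccr9, its receptor, marks gut-homing T cells and plasmacytoid dendritic cells. Cxcl14 is made by epithelium at rest. The comparison of allo-WT with syngeneic skin asks how these genes differ with allogeneic donor cells, and that of allo-MCd with allo-WT skin asks how they differ with a recipient that lacks mast cells.

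RefSeq promoter windows of GRCm38.p6, from 250 bases before to 50 bases after the annotated start of the gene, were at hand for 4 of the 8 genes, Ccl20, Cxcl14, Ccl28 and Ccr9. The windows of Ccl20 and Ccr9 are printed because these genes had their highest normalized counts in allo-WT skin, a choice made with the values known. The first covers chr1:83116516-83116815 on the plus strand and the second chr9:123766961-123767260 on the plus strand. Capitals mark matches on either strand to GGGNNNNNCC, the letters of a kB site, the kind of site that NF-kB proteins bind.
Ccl20: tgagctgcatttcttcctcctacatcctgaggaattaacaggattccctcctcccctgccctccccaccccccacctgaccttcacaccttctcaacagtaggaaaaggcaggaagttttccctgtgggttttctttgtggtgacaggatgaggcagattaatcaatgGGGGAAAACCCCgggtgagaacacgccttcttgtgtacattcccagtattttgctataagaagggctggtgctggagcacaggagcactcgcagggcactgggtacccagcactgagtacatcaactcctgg
Ccr9: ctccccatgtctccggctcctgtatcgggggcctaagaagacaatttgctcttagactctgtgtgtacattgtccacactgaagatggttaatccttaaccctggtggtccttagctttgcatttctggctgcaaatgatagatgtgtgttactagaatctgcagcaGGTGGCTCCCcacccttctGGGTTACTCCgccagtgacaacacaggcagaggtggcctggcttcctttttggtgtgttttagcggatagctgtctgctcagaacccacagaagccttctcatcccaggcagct
In the Ccl20 window, 4 overlapping matches made up the run GGGGAAAACCCC, from 82 to 71 bases before the start, with matches on both strands. The Ccr9 window held 2 separate matches, GGTGGCTCCC (as the reverse complement) and GGGTTACTCC. Of the windows not printed, that of Ccl28, a gene under background in every mouse, held 1 match, from 64 to 55 bases before its start, and that of Cxcl14 held none. The same letters occurred in 13624 of 27025 promoter windows of this length, or 50.4%, so a match alone sets none of these genes apart. No match to TGANTCA (AP-1, in 7.93% of all windows), TTCNNNGAA (STAT, in 8.47%) or TATAAA (the TATA box, in 14.2%) lay in either printed window, which says only that these letters are not in it. Ccl25, Ccl27a and Ccr6 have no printed sequence.

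The depth of each mouse was known from whole counts recovered from its scaling factor, and totals lay between 831632 and 1460260. Allo-WT mouse 1 had the lowest total and the weakest readout of the brightest positive control, 3975 counts where the other 10 mice had 17615 to 33547. Background was set from the negative controls as their mean and 2 SD on top, which came to between 14.3 and 37.5 normalized counts. Differences were tested with limma on log2(value + 1) over 697 genes that had at least 20 normalized counts in at least 3 mice, and calls were made at 0.05 after Benjamini-Hochberg adjustment. This scale understates the change of low genes. The log2 difference of the median gene was 0.20 for allo-WT minus syngeneic, -0.71 for allo-MCd minus allo-WT and -0.59 for allo-MCd minus syngeneic. When each mouse was scaled to the same median gene these became -0.03, 0.17 and 0.06, so the values under this median scaling are given as well. An exact permutation test, two-sided, cannot give a p below 0.1 with 3 mice against 3 or below 0.0179 with 3 against 5. Fewer cells of a type and less RNA per cell cannot be told apart in these bulk samples.

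In allo-WT skin Ccl20 was higher than in syngeneic skin, while Ccr6, the gene of its receptor, and the keratinocyte chemokine gene Ccl27a were lower. Compared with allo-WT skin, allo-MCd skin had more Ccl27a and Cxcl14 and less Ccl20 and Ccr9 on the deposited scale. The Ccl20 difference between these allogeneic groups was not called under median scaling, and each Ccl27a call was lost without allo-WT mouse 1 or mouse 2. In the first comparison 1 of the 6 tested members was called higher, where 28.3% of all tested genes were, and 2 were called lower, where 14.9% were. In the second, 2 members were called higher against 11.2% of all tested genes, and 2 were called lower against 50.2%. In the third, allo-MCd against syngeneic skin, limma called 0 of the 6 members, where 4.59% of all tested genes were called higher and 37% lower. At an unadjusted p under 0.05 this comparison held 2 members, Ccr6 and Cxcl14, and voom on the recovered counts called Ccr6 alone. Tukey's comparison within each gene on unlogged values, the methods' test, gave a p of 0.0140 for Ccr6, which was 0.0767 after adjustment over all genes and so no call. Under median scaling the first comparison had the same calls, 1 higher (24% of all tested genes) and 2 lower (27.1%). The second then had 4 members higher (37.3% of all tested genes) and 1 lower (29.4%), and the third 2 higher (16.9%) and 0 lower (11.8%).

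**Figure D1:**
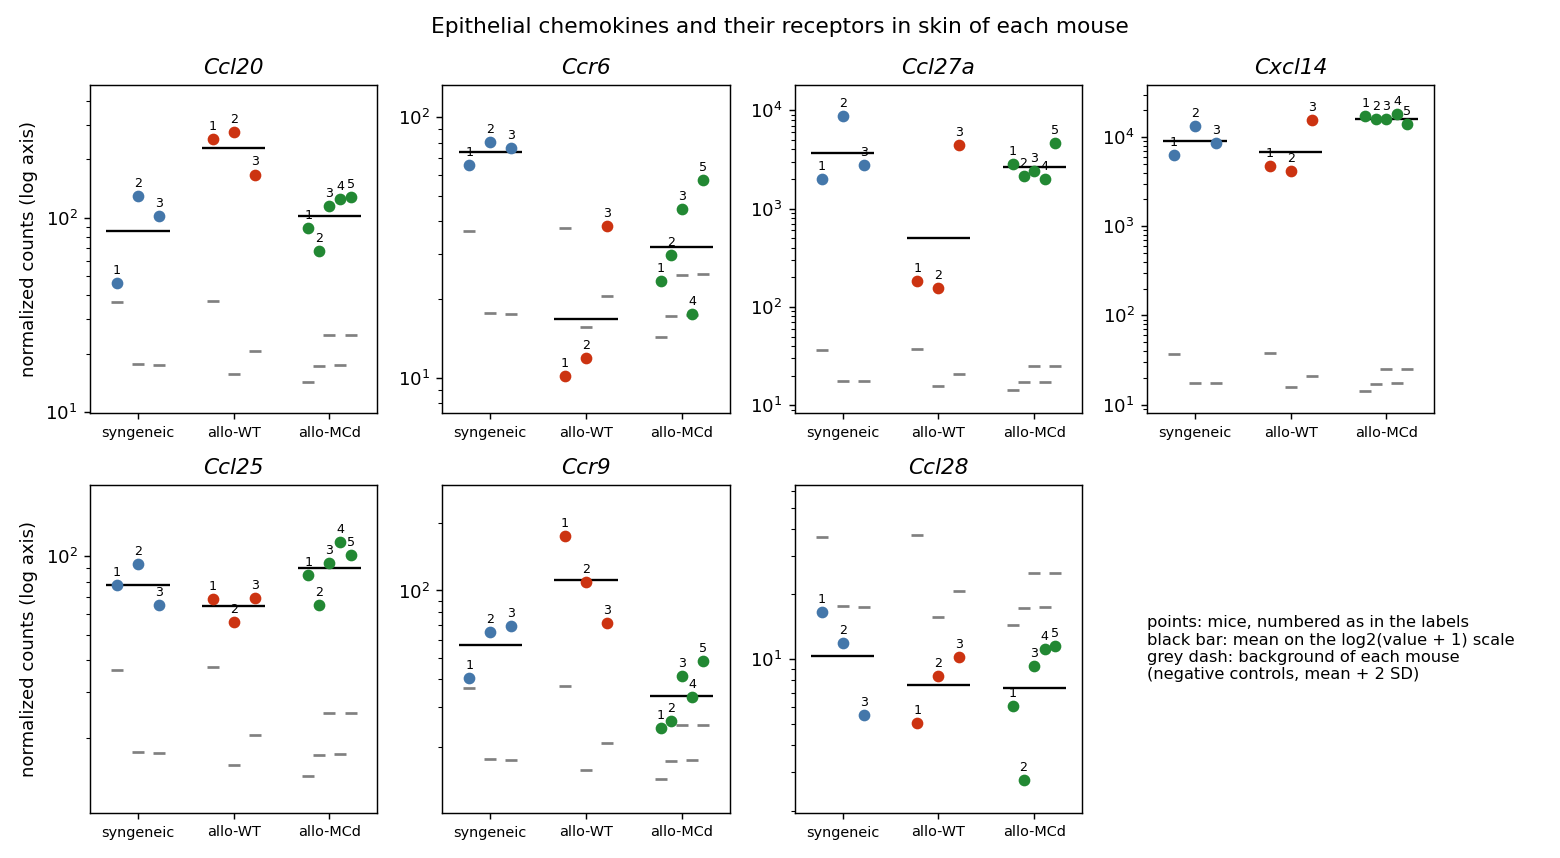
Normalized counts of the 7 genes in each mouse on log axes, with mice numbered within their group. Black bars are group means on the log2(value + 1) scale and grey dashes the background of each mouse. Ccl20 is highest in the 3 allo-WT mice, Ccl27a is far lower in allo-WT mice 1 and 2 than in the other 9 mice, and Ccl28 lies under the background in all 11 mice.

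Ccl20, chromosome 1 from 83116766 to 83119167, had 46.4, 129.8 and 103 normalized counts in syngeneic mice 1 to 3. The allo-WT mice had 256, 278 and 167, and the 5 allo-MCd mice had 88.8, 67.7, 116, 125 and 128. All 3 allo-WT values lay above all 8 others, whereas the syngeneic and allo-MCd ranges overlapped. The means were 92.9 ± 42.5 (SD, n = 3), 234 ± 58.7 (SD, n = 3) and 105 ± 26.0 (SD, n = 5). Ccl20 was 2.66-fold higher in allo-WT than in syngeneic skin, a log2 difference of 1.41 with a standard error of 0.40 (limma adjusted p = 0.0132, exact permutation p = 0.1, the smallest possible). Without syngeneic mouse 1 this difference was 0.98 and was not called (limma adjusted p = 0.0572). Against allo-WT skin, allo-MCd skin had less Ccl20, with a log2 difference of -1.15 with a standard error of 0.36 (limma adjusted p = 0.0144, exact permutation p = 0.0179). This second call depended on the scale, since the difference was -0.26 under median scaling (limma adjusted p = 0.525), and leaving out allo-WT mouse 1 (-1.07) or mouse 2 (-1.01) ended it as well. The allo-MCd mice differed from syngeneic mice by 0.26 in log2 units, with a 95% interval from -0.52 to 1.04 (limma adjusted p = 0.570), and it turned to -0.17 without syngeneic mouse 1. Under median scaling it was 0.91, with a 95% interval from 0.15 to 1.66 (limma adjusted p = 0.0699), and was not called.

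Ccr6, the Ccl20 receptor gene on chromosome 17 from 8236041 to 8258519, ran the other way between syngeneic and allo-WT skin. Syngeneic mice had 65.8, 80.1 and 76.1 normalized counts, and allo-WT mice had 10.1, 11.9 and 38.3. Only the last of these 3 allo-WT values was above its background, and recovered counts in this group were between 4 and 30. The allo-MCd mice, all above background, had 23.5, 29.7, 44.4, 17.6 and 57.6. Every allo-WT and every allo-MCd value was below every syngeneic value, and the allogeneic groups overlapped. The log2 difference between allo-WT and syngeneic skin was -2.07 with a standard error of 0.52 (limma adjusted p = 0.00802, exact permutation p = 0.1). With each value raised to at least the background of its mouse it was -1.35 (limma adjusted p = 0.0297), and it was called under every alternative run. For allo-MCd mice the difference from syngeneic ones was -1.19 (limma adjusted p = 0.0572, exact permutation p = 0.0357) and missed the threshold. It passed without allo-MCd mouse 5 (-1.41). It also passed without allo-WT mouse 3, which is in neither group, so that it stayed at -1.19 and only its standard error was smaller. It was -0.56 under median scaling (limma adjusted p = 0.342) and -0.59 under quantile normalization. From allo-WT mice they differed by 0.87, with a 95% interval from -0.14 to 1.89 (limma adjusted p = 0.123), and under median scaling it was called at 1.72 (limma adjusted p = 0.00337), as it was without allo-WT mouse 3 (1.44). With the values raised to the background it was 0.15 (limma adjusted p = 0.753).

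Within each mouse the scaling factor nearly cancels in a ratio of 2 genes, and such ratios were compared between mice for 4 pairs picked with the values known, not read as relative levels of the genes. The log2 ratio of Ccr6 over Ccl20 lay between -0.69 and 0.50 in syngeneic, between -4.53 and -2.10 in allo-WT and between -2.77 and -1.14 in allo-MCd mice. All 8 allogeneic ratios were below the 3 syngeneic ones, and the lowest ratios were those of allo-WT mice 1 and 2, whose Ccr6 was not above background. With 20 added to both values, the allo-WT ratios lay between -3.22 and -1.68. Markers of cells that can carry Ccr6 were few on the panel. Ms4a1, a B cell gene and the only 1 of 7 listed B cell and plasma cell markers measured, lay between 6.62 and 19.5 normalized counts in syngeneic, 17.9 and 49.8 in allo-WT and 6.49 and 15.0 in allo-MCd mice. Only 2 of these 11 values, both from allo-WT mice, were above background, and Ms4a1 was not tested. Cd28, the only 1 of 12 listed T cell markers measured, lay between 58.4 and 92.6, 162 and 200.3, and 28.9 and 39.9 in the same order. Cd28 had its highest values in allo-WT skin, where Ccr6 had its lowest mean. Of 5 listed Langerhans cell markers 2 were measured, Cd1d1 and Csf1r, which macrophages also express, and their sums lay between 3675 and 7031, 4910 and 7947, and 1661 and 4687. The 2 genes did not move alike, since allo-MCd minus allo-WT was -2.09 for Csf1r (limma adjusted p = 5.77e-05) and -0.38 for Cd1d1 (limma adjusted p = 0.465). Endothelial cells were not among the carriers of Ccr6 named above. Their genes Cdh5 and Tek, 2 of 5 listed, summed to between 954 and 1541 in syngeneic, 385 and 481 in allo-WT and 390 and 946 in allo-MCd mice. All 8 allogeneic sums were below the syngeneic range on the deposited scale, the highest of them narrowly. Under median scaling allo-MCd minus syngeneic was -0.11 for Cdh5 and -0.63 for Tek, neither called, while allo-WT minus syngeneic was -1.65 and -1.86, both called. The part of these cells in the Ccr6 result was not tested.

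Ccl27a, chromosome 4 from 41769467 to 41774225, was the member with the widest spread on the log2 scale. The syngeneic mice had 1996, 8774 and 2808 normalized counts. Allo-WT mice 1 and 2 had 185 and 154, and allo-WT mouse 3 had 4406. The allo-MCd mice had 2828, 2164, 2422, 1984 and 4668. Thus 2 of 3 allo-WT mice were below all the others, while the remaining one was above 2 of 3 syngeneic and 4 of 5 allo-MCd mice. The log2 difference between allo-WT and syngeneic skin was -2.87 with a standard error of 1.02 (limma adjusted p = 0.0392, exact permutation p = 0.3). Between allo-MCd and allo-WT skin it was 2.41 with a standard error of 0.91 (limma adjusted p = 0.0367, exact permutation p = 0.0893). Without allo-WT mouse 3 these were -4.43 and 3.98 (limma adjusted p = 0.000107 and 4.01e-05), whereas without allo-WT mouse 1 or mouse 2 neither was called, with -2.15 and -2.02 against syngeneic and 1.70 and 1.56 against allo-MCd skin. The first call also ended when allo-MCd mouse 1 (-2.87) or any 1 of syngeneic mice 1 (-3.30), 2 (-2.24) and 3 (-3.06) was left out, and the second without allo-MCd mouse 1 (2.39), 2 (2.49), 3 (2.45) or 5 (2.21). The methods' test called neither. For allo-MCd against syngeneic mice the difference was -0.45, with a 95% interval from -2.44 to 1.53 (limma adjusted p = 0.703), and it was 0.20 under median scaling and 0.18 without syngeneic mouse 2. Ccl27b, a near-identical copy, lies on the same chromosome from 42650563 to 42656008, and the probe sequence was not used here, so RNA of both copies may have been counted.

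The gene whose pattern was most like that of Ccl27a was Ccr4, a receptor of skin-homing T cells for Ccl17 and Ccl22, with a Pearson's r of 0.97 and a Spearman rank correlation of 0.80 over the 11 mice. These r values are descriptions, over mice that share group, depth and scaling. Ccr4 had 129, 296 and 149 normalized counts in syngeneic, 17.8, 16.7 and 126 in allo-WT, and 143, 78.8, 88.8, 115 and 143 in allo-MCd mice. The low values were again those of allo-WT mice 1 and 2, and without these the r of Ccr4 with Ccl27a was 0.80 over 9 mice. The Ccr4 value of mouse 1 was under its background of 37.5, and that of mouse 2 was close to its background of 15.7. Next came Arhgef28, a guanine nucleotide exchange factor gene (r = 0.96), and Znrf2, a ubiquitin ligase gene (r = 0.94), which without the same 2 mice had r values of 0.72 and 0.50. Arhgef28 had 40.6 and 57.3 normalized counts in allo-WT mice 1 and 2, and between 245 and 485 in the other 9 mice. Under median scaling Ccr4 and Arhgef28 stayed in the first and second place, and Vav2 took the third (r = 0.96), which on the deposited scale had an r of only 0.22.

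**Figure D2:**
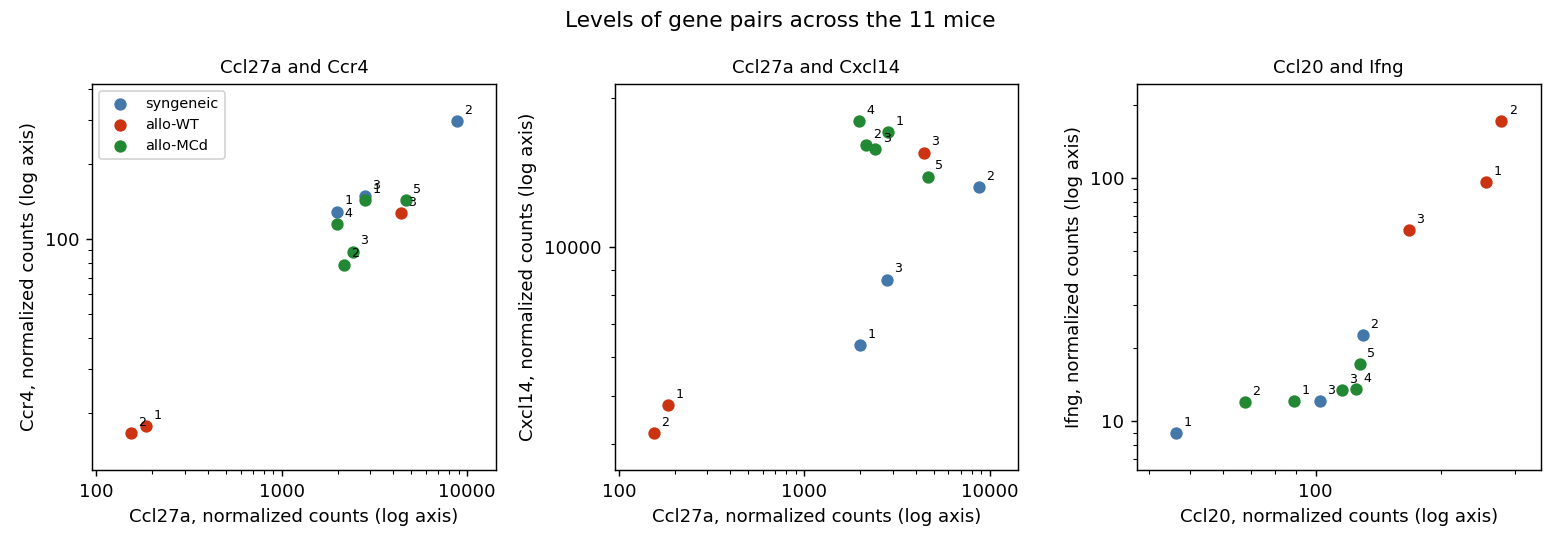
Normalized counts of Ccl27a against Ccr4, Ccl27a against Cxcl14, and Ccl20 against Ifng in the 11 mice, on log axes, with points numbered by mouse and colored by group. Allo-WT mice 1 and 2 stand apart at the low end in the first panel and the second, while allo-WT mouse 3 lies among the other groups.

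Cxcl14, chromosome 13 from 56288643 to 56296811, had 6345, 13236 and 8604 normalized counts in syngeneic mice and 4786, 4212 and 15535 in allo-WT mice. In allo-MCd mice it had 17118, 16117, 15806, 18002 and 13889.5. The 5 allo-MCd values were close together, with a mean of 16186 ± 1548 (SD, n = 5), and all were above the syngeneic ones. The same 2 allo-WT mice that were low in Ccl27a were also the lowest in Cxcl14. The log2 difference between allo-MCd and allo-WT skin was 1.25 with a standard error of 0.38 (limma adjusted p = 0.0141, exact permutation p = 0.0357). It was 2.14 under median scaling (limma adjusted p = 0.000757), and it was not called without allo-WT mouse 1 (0.995) or mouse 2 (0.903) or by the methods' test after adjustment over all genes (0.98, adjusted p = 0.0952). Against syngeneic skin the allo-MCd difference was 0.85 and missed the threshold (limma adjusted p = 0.0915, exact permutation p = 0.0179). Under median scaling it was 2.83-fold and called (limma adjusted p = 0.0200). Allo-WT mouse 3 is in neither group, and leaving it out kept the difference at 0.85. The standard error was then 0.23 in place of 0.38, and the difference was called (limma adjusted p = 0.0126). Without syngeneic mouse 1 it was 0.60 and without syngeneic mouse 2 it was 1.13, not called in either case (limma adjusted p = 0.306 and 0.0587). Between allo-WT and syngeneic skin the Cxcl14 difference was -0.40, with a 95% interval from -1.34 to 0.53 (limma adjusted p = 0.447). It was called at -0.999 without allo-WT mouse 3 (limma adjusted p = 0.0148), but was -0.15 without allo-WT mouse 1, -0.057 without allo-WT mouse 2 and -0.12 without syngeneic mouse 2.

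Fzd6, a Wnt receptor gene, Alcam, an adhesion molecule gene, and Kalrn, a guanine nucleotide exchange factor gene, were most like Cxcl14, with r values of 0.93, 0.92 and 0.91 over 11 mice. Without allo-WT mice 1 and 2 these values were 0.92, 0.79 and 0.76. The same 3 genes led under median scaling, with 0.97, 0.96 and 0.96. Fzd6 had 1132 to 1357 normalized counts in allo-MCd mice, all above the range from 382 to 781 in the other 6. The log2 ratio of Ccl27a over Cxcl14 was -1.67, -0.59 and -1.61 in syngeneic mice, and -4.69, -4.76 and -1.82 in allo-WT mice. It lay between -3.18 and -1.57 in allo-MCd mice. So in allo-WT mice 1 and 2 Ccl27a was low also relative to Cxcl14.

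Of 23 listed keratinocyte and epithelial markers the panel measured 2, Cdh1 (E-cadherin) and Cldn1 (claudin-1), and no keratin was among them, so the amount of epidermis in a sample cannot be read from it. Their summed normalized counts were between 4265 and 10407 in syngeneic, 8188 and 8883 in allo-WT and 11195 and 12866 in allo-MCd mice. The sums of allo-MCd mice were above all others, as the Cxcl14 values were above all but that of allo-WT mouse 3. Cldn1 had more RNA in allo-MCd than in allo-WT mice, by 1.19 on the log2 scale (limma adjusted p = 0.0101), whereas the Cdh1 difference was -0.04. Under median scaling both were higher there, Cldn1 by 2.09 and Cdh1 by 0.85 (limma adjusted p = 0.000525 and 0.0138). Against syngeneic mice Cldn1 was higher in allo-MCd mice by 0.92 (limma adjusted p = 0.0487), and under median scaling Cldn1 (1.58) and Cdh1 (1.23) were both called, as Cxcl14 was. The first of these calls was close to the threshold, and syngeneic mouse 1 had 2049 normalized counts of Cldn1 against 5659 and 4478 in syngeneic mice 2 and 3. In allo-WT mice 1, 2 and 3 Cldn1 had 1818, 3310.5 and 4928 normalized counts and Cdh1 had 6371, 4905 and 3955. The part of these markers in the Cxcl14 and Ccl27a results was not tested. The mast cell list, with all 7 genes measured, summed to between 3851 and 9348 in syngeneic, 2397 and 14802 in allo-WT and 139 and 656 in allo-MCd mice. The 4 measured fibroblast genes of 8 listed summed to between 89561 and 189288 in syngeneic, 12806 and 135106 in allo-WT and 36887 and 86453 in allo-MCd mice. Among them Col1a2 had 3535 normalized counts in allo-WT mouse 2, against 10409 to 72324 in the other mice.

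Ccl25, chromosome 8 from 4325205 to 4360020, was measured at low and narrow levels. Syngeneic mice had 77.8, 93.0 and 65.1 normalized counts and allo-WT mice had 68.5, 56.1 and 69.0. The allo-MCd mice had 85.1, 64.9, 94.0, 113 and 101. All 11 values were above background and each pair of groups overlapped. Limma called no difference on the deposited scale, with 0.48 for allo-MCd minus allo-WT (95% interval from -0.06 to 1.03, limma adjusted p = 0.113). The difference was -0.27 for allo-WT minus syngeneic (95% interval from -0.88 to 0.34) and 0.21 for allo-MCd minus syngeneic (95% interval from -0.34 to 0.76). Leaving out 1 mouse took the allo-WT minus syngeneic difference to between -0.40 and -0.15, the lesser size without syngeneic mouse 2, and the allo-MCd minus syngeneic one to between 0.083 and 0.34, the least without syngeneic mouse 3. Median scaling gave 1.37 for allo-MCd minus allo-WT (limma adjusted p = 0.000476) and 0.86 for allo-MCd minus syngeneic (limma adjusted p = 0.0242), without overlap in either, and -0.51 for allo-WT minus syngeneic (limma adjusted p = 0.138), which quantile normalization took to -0.78 (limma adjusted p = 0.0325). Rgs6, a regulator of G protein signaling, and Hes1, a Notch target gene, were most like it with r values of 0.77 and 0.75 over 11 mice, followed by Golim4 at 0.71. Without allo-MCd mouse 4 and allo-WT mouse 2 these values were 0.73, 0.53 and 0.58. Under median scaling the genes most like Ccl25 were Hes1 (0.95), Hdac3 (0.94) and Pggt1b (0.93), of which Pggt1b had an r of 0.27 on the deposited scale.

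Ccr9, the Ccl25 receptor gene on chromosome 9 from 123767211 to 123783457, had 40.4, 64.9 and 69.5 normalized counts in syngeneic mice. Allo-WT mice had 175, 109 and 71.5, and allo-MCd mice had 24.3, 26.0, 41.3, 33.5 and 48.4. On the deposited scale the 3 allo-WT values were the highest of all, with the lowest of them close to the highest syngeneic one. All 11 were above background. The allo-MCd level of Ccr9 was 3.24-fold lower than the allo-WT level, a log2 difference of -1.70 with a standard error of 0.35 (limma adjusted p = 0.00131, exact permutation p = 0.0179). Under median scaling it was -0.82 (limma adjusted p = 0.0304), still without overlap, and quantile normalization ended the call at -0.64 (limma adjusted p = 0.111). Between allo-WT and syngeneic skin the difference was 0.95 (95% interval from 0.09 to 1.82, limma adjusted p = 0.0674). It was called at 1.27 without allo-WT mouse 3 (limma adjusted p = 0.0230). Without allo-WT mouse 1 it fell to 0.63 (limma adjusted p = 0.232), and without syngeneic mouse 1 to 0.71 (limma adjusted p = 0.202). Median scaling gave 0.71 (limma adjusted p = 0.0935), with overlap between these groups. The allo-MCd difference from syngeneic mice was -0.74 (95% interval from -1.51 to 0.03, limma adjusted p = 0.105), and under median scaling it was -0.10 (limma adjusted p = 0.824). The log2 ratio of Ccr9 over Ccl25 separated allo-MCd mice, at -1.77 to -1.05, from syngeneic mice, at -0.93 to 0.09, and from allo-WT mice, at 0.05 to 1.34.

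**Figure D3:**
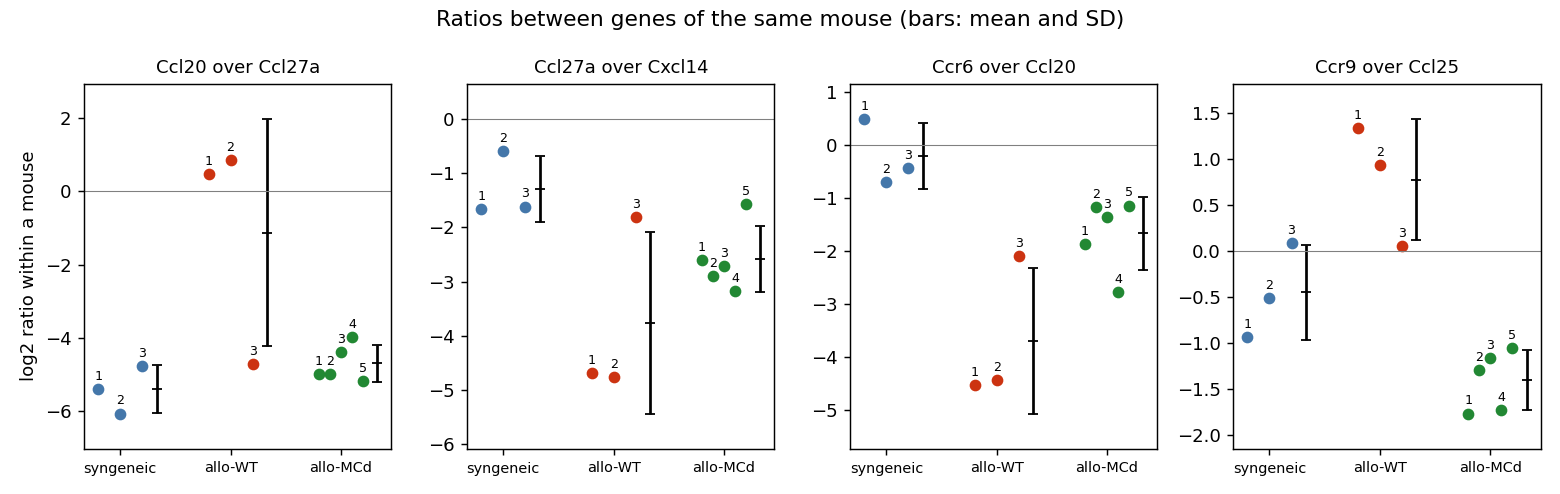
Log2 ratio of 2 genes within each mouse, with 1 added to both values, for the 4 gene pairs described. Points are mice, numbered within their group, and black bars are the group mean with its SD. Ccr6 over Ccl20 is lower in all 8 allogeneic mice than in the 3 syngeneic mice, and Ccr9 over Ccl25 is lowest in the 5 allo-MCd mice.

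Ccl28, chromosome 13 from 119623819 to 119654359, was under the background of its mouse in all 11 mice, at 2.78 to 16.5 normalized counts and 2 to 14 recovered counts. It was not tested, and no difference was detectable at this depth. The gene with the pattern most like it was Tlr11, with an r of 0.69 over 11 mice that fell to 0.35 without the 2 mice farthest from the median of Ccl28.

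**Figure D4:**
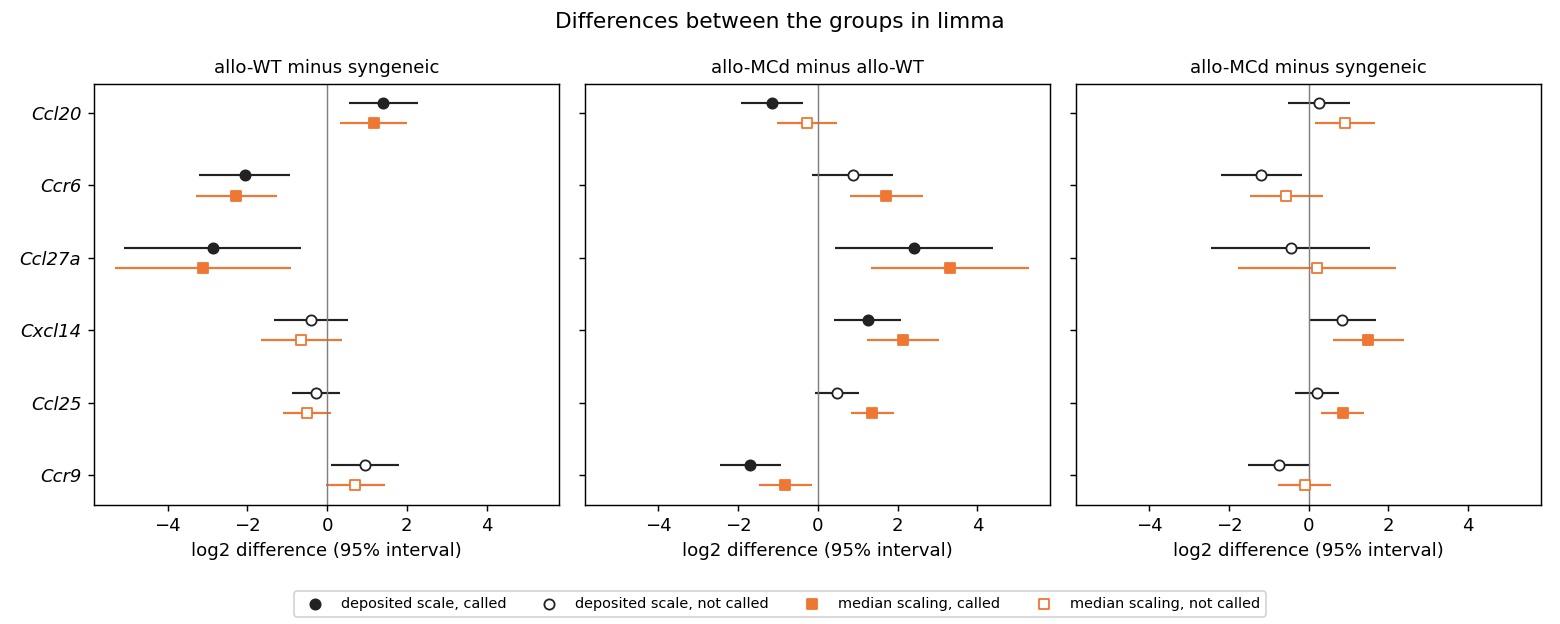
Log2 differences with 95% intervals from limma for the 6 tested genes in the 3 comparisons. Circles are the deposited scale and squares the median scaling, and filled symbols passed 0.05 after adjustment. Median scaling shifts each difference between allo-MCd and allo-WT upward, and the Ccl20 call is lost there while those of Ccl25 and Ccr6 are gained.

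Among the genes most like Ccl20 over the 11 mice were Ifng, the gene of interferon gamma (r = 0.89), and Ccl1, a ligand of Ccr8 (r = 0.88). Ifng had 96.3, 172 and 61.3 normalized counts in allo-WT mice, against 8.98 to 22.7 in the other 8, of which 1 was above its background. Ccl1 had 137, 302 and 206 in allo-WT mice, and between 24.3 and 90.9 in the others. Both genes had their 3 highest values in the allo-WT mice, as Ccl20 did. Under median scaling Crabp2 (0.86) and Tap1 (0.80) came before them, with Ccl1 at 0.76 and Ifng at 0.74. Without the 2 mice farthest from the Ccl20 median, the r of Ifng was 0.89 and that of Ccl1 0.79 on the deposited scale.

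The list for the type 17 axis held 30 genes, of which 18 were measured and 16 tested. Those measured were cytokines that induce Ccl20, genes of their signaling and the antimicrobial genes S100a8, S100a9 and Camp, and the IL-17 genes Il17a and Il17f are not analysed here. For allo-WT against syngeneic mice limma called 4 of the 16 higher and 0 lower, where 28.3% of all tested genes were higher and 14.9% lower, and the median log2 difference of the list was 0.63. Of these, S100a9 and S100a8, which encode calprotectin, were higher by 6.24 and 5.35 on the log2 scale (limma adjusted p = 0.000602 and 0.00119), and Il6 by 2.67 (limma adjusted p = 0.00273). S100a9 had 55154, 12613 and 1188 normalized counts in allo-WT mice 1 to 3 and S100a8 had 76492, 16077 and 1892, so these values differed widely within the group. Without allo-WT mouse 1 the differences of S100a9 and S100a8 were 4.96 and 4.08, and without mouse 3 they were 7.73 and 6.75. The cytokine gene Il1a had 1739, 979 and 329.6 normalized counts in allo-WT mice 1 to 3, against 82.2 to 169 in the other 8. For Tnf the allo-WT values were 251, 180.3 and 93.3, all above the highest of the others, 86.0. Among the 3 allo-WT mice, mouse 3 was the lowest in Il1a, Tnf and Ccl20, mouse 2 the lowest in Il6 and Il1b, and mouse 3 the highest in Il12b. The Tnf difference from syngeneic mice was not called (limma adjusted p = 0.0722). Il22 lay between 2.39 and 13.5 normalized counts in all 11 mice and was not tested. Between allo-MCd and allo-WT skin 14 of the 16 genes were lower, against 50.2% of all tested genes, and 0 higher, with a median of -1.49, led by S100a9 (-6.15), S100a8 (-4.49) and Il1a (-3.14), of which those of S100a9 and S100a8 lay between -7.64 and -4.87 and between -5.90 and -3.23 without 1 mouse, and that of Il1a was -3.80 without allo-WT mouse 3. Under median scaling 6 of the 16 were lower and 2 higher, where 29.4% and 37.3% of all tested genes were. Set against syngeneic skin, 4 of the 16 were lower in allo-MCd skin, against 37% of all tested genes, and 0 higher, among them Il1b (-1.80), Il23a (-0.80) and Nfkbia (-0.74), and under median scaling 0 were called, where 11.8% of all tested genes were lower and 16.9% higher. The calls of Il1b, Il23a and Nfkbia ended without syngeneic mouse 1 or 3, and that of Il23a also without syngeneic mouse 2 or allo-MCd mouse 1, 2 or 4. Il23a was under background in every allo-MCd mouse and in syngeneic mouse 1, and it passed the filter through the other groups, so no size can be read from its -0.80. Without allo-WT mouse 3 the count of 4 in the first comparison was 7. The count of 4 in the last was 0 without syngeneic mouse 1 or 3, and it was 2 when allo-MCd mouse 1, 2 or 4 or syngeneic mouse 2 was left out and 9 without allo-MCd mouse 5.

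Of the other chemokine ligands, which include most of the inflammatory ones, 26 of 28 were tested. In allo-WT skin 17 were higher and 1 lower than in syngeneic skin, where 28.3% and 14.9% of all tested genes were, with a median log2 difference of 2.16, against 0.20 over all tested genes. Cxcl9 (6.11), Cxcl10 (5.08), both ligands of Cxcr3, and Ccl5 (4.68), an attractant of T cells and macrophages, had the largest differences. The ligand that was lower was Ccl21a, a lymphatic ligand of Ccr7, at -1.08 (limma adjusted p = 0.0396), a call that ended when syngeneic mouse 1 or 3 or allo-WT mouse 1 or 3 was left out. In allo-MCd skin 21 were lower than in allo-WT, against 50.2% of all tested genes, and 0 higher, and 20 and 1 under median scaling, where 29.4% and 37.3% of all tested genes were. Cxcl9 (-5.24), Cxcl5 (-4.45), a neutrophil attractant, and Ccl3 (-4.30) led, with Cxcl5 at -5.36 without allo-WT mouse 2 and -3.57 without mouse 1, and Ccl3 at -4.98 without mouse 3. Compared with syngeneic skin 9 of these 26 ligands were lower in allo-MCd mice and 0 higher, where 37% of all tested genes were lower. Ccl24 (-2.23), Ccl9 (-1.93) and Ccl17 (-1.78) led, and under median scaling 5 were lower and 2 higher, where 11.8% and 16.9% of all tested genes were.

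Of the other chemokine receptors, 14 of 15 were tested, and in allo-WT against syngeneic skin 8 were higher and 1 was lower, where 28.3% and 14.9% of all tested genes were. The receptor that was lower was Ccr4, at -2.36 (limma adjusted p = 0.0120, not called without allo-WT mouse 1, and -3.30 without mouse 3), while Cxcr2 (3.51), Ccr3 (3.23) and Ccr1 (2.37) were higher. Ccr4 was under background in allo-WT mouse 1 and close to it in mouse 2, which limits how exactly its differences can be read. Without allo-WT mouse 1 the difference of Cxcr2 was 2.89, and that of Ccr3 was 4.26 without mouse 2 and 2.47 without mouse 3. Ccr6 and Ccr4 were thus the receptors called lower in a comparison in which most called receptors were higher. Between allo-MCd and allo-WT skin 12 of the 14 were lower, against 50.2% of all tested genes, and Ccr4 was higher by 1.68 (limma adjusted p = 0.0246), a call lost without allo-WT mouse 1 or 2 or allo-MCd mouse 1, and 2.61 without allo-WT mouse 3. The largest of these decreases included those of Ccr1 (-3.83) and Cxcr2 (-3.18, or -2.56 without allo-WT mouse 1). Under median scaling 7 receptors were lower and 1 higher, where 29.4% and 37.3% of all tested genes were, and over all these genes the lower calls fell from 350 to 205. Allo-MCd skin had 5 of the 14 lower than syngeneic skin and 0 higher, where 37% of all tested genes were lower, with Ccr2 (-1.78), Ccr1 (-1.46) and Cxcr6 (-0.95, not called without syngeneic mouse 3) in front. Under median scaling 1 was lower and 2 were higher, where 11.8% and 16.9% of all tested genes were. On the deposited scale the count of 5 was 3 without syngeneic mouse 2 and 2 without syngeneic mouse 3.

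Homing and adhesion genes work with these receptors when T cells leave the blood, and the 7 of 10 listed that were measured were all tested. Vcam1, the endothelial ligand of alpha4 integrins, was higher in allo-WT than in syngeneic skin by 2.31 on the log2 scale, and Itgb7 and Itga4, which encode the gut-homing integrin alpha4beta7, by 1.16 and 1.10 (limma adjusted p = 0.000622, 0.00732 and 0.00827). The median of the list was 0.62, with 3 of 7 higher, against 28.3% of all tested genes, and 0 lower. Itgb7 had 413, 732 and 736 normalized counts in allo-WT mice, 234 to 307 in syngeneic and 114 to 198 in allo-MCd mice, in groups that did not overlap. Selplg, the gene of the selectin ligand PSGL-1, had 1975, 1422 and 1989 in allo-WT mice, 997 to 1426 in syngeneic and 344 to 699 in allo-MCd mice. In allo-MCd skin 6 of the 7 genes were lower than in allo-WT, where 50.2% of all tested genes were, led by Vcam1 (-3.03), Itga4 (-2.53) and Itgb7 (-2.06), and 4 were lower than in syngeneic skin, where 37% of all tested genes were, with Selplg at -1.44, Itga4 at -1.43 and Itgb7 at -0.90, the last of which was not called without syngeneic mouse 1 or 3. Under median scaling 4 were lower and 1 higher in the first of these comparisons, where 29.4% and 37.3% of all tested genes were, and 2 lower and 1 higher in the second, where 11.8% and 16.9% were. The second count on the deposited scale was 2 without syngeneic mouse 1 or 3.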

How the data were processed

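The authors deposited a linear signal, molecule counts normalized in nSolver, with housekeeping genes, software version and background treatment not given in the sources used here. The RNA extraction is named Trizol in the labels and Ribozol in the methods. The 768 entries held 754 genes and raw counts of 14 control probes. Whole counts per mouse were recovered from 1 factor each, with 99.7% to 100% of genes within 0.011 of a multiple. Replicates were separate mice, and no pair within a group agreed within sampling noise. After 19 housekeeping genes were set aside, 697 genes were fitted in limma 3.58.1 (R 4.3.3) on log2(value + 1) with an intensity trend, all 3 groups and no covariate. The fit was tested on simulated data. Mouse numbers did not pair the mice, with correlations of same-numbered deviations between -0.11 and 0.21. The members, gene lists and tests were chosen with earlier results of these data known. The 7 genes were named by the rule, as were the 3 genes most like each ligand, those of largest change in each list, and list members singled out for their role. Some of these genes are not reported here. Python 3.11.15 with numpy 2.4.6, pandas 2.3.3, scipy 1.17.1 and matplotlib 3.10.9 was used. Alternatives were other pseudocounts, filters, scalings, trends, samples, tests and mice left out.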

Additional observations from a re-analysis of the deposited data

How the results depend on the processing

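Each log2 difference of the 6 tested genes was computed under 25 alternatives, and those of Ccr6 (allo-WT minus syngeneic) and Ccr9 (allo-MCd minus syngeneic) kept their direction and their side of the threshold in all of them. For allo-WT minus syngeneic, quantile normalization ended the Ccl20 call (0.98) and made one for Ccl25 (-0.78), and a pseudocount of 20 made one for Ccr9 (0.77). The Ccl27a call ended with the replicate block, which takes the mouse number as a term (-2.87, limma adjusted p = 0.0635), with only the groups compared (-2.87) and with the methods' test (-1.52). For allo-MCd minus allo-WT, median scaling and quantile normalization ended the Ccl20 call (-0.26 and -0.13) and made calls for Ccl25 (1.37 and 1.54) and Ccr6 (1.72 and 1.85), and the latter ended that of Ccr9 (-0.64). The Ccl27a call ended with the replicate block (2.29), with only the groups compared (2.41) and with the methods' test (0.83). For allo-MCd minus syngeneic, the same scalings turned the Ccl27a difference positive (0.20 and 0.046) and made calls for Ccl25 (0.86 and 0.77) and Cxcl14 (1.4996 and 1.44). Ccr6 became called with a pseudocount of 20 (-0.83), the replicate block (-1.20), only the groups compared (-1.19), voom on the recovered counts (-1.24), values raised to the background (-1.19) and, only before adjustment over all genes, the methods' test (-1.10), and Cxcl14 with only the groups compared (0.85). After that adjustment the methods' test also ended the Cxcl14 call for allo-MCd minus allo-WT (0.98, adjusted p = 0.0952). Voom and the raised values were chosen after seeing the data. The cause of these changes was not tested. The numbers did not pair the mice, and the replicate block changed no other call of these genes.

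With each mouse left out in turn, allo-WT minus syngeneic ranged from 0.98 to 1.71 for Ccl20, -4.43 to -2.02 for Ccl27a, -0.999 to -0.057 for Cxcl14 and 0.63 to 1.27 for Ccr9. Allo-MCd minus allo-WT ranged from -1.38 to -1.01 for Ccl20, 1.56 to 3.98 for Ccl27a, 0.90 to 1.84 for Cxcl14 and 0.53 to 1.44 for Ccr6. Allo-MCd minus syngeneic ranged from -0.17 to 0.56 for Ccl20, -0.89 to 0.18 for Ccl27a, 0.60 to 1.13 for Cxcl14 and -1.41 to -0.99 for Ccr6. The Ccl27a call against syngeneic mice held in these only without allo-WT mouse 3 and without allo-MCd mice 2, 3, 4 and 5.

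Over all 697 genes the calls lower in allo-WT than syngeneic mice, 104, became 189 under median scaling and 58 with the methods' test after adjustment, and those higher in allo-MCd than allo-WT mice, 78, became 260 and 45. The calls lower in allo-MCd than allo-WT mice, 350, became 205 under median scaling. Those of allo-MCd against syngeneic mice, 32 higher and 258 lower, became 118 and 82 under median scaling and 14 and 65 with the methods' test. Quantile normalization gave 211, 259, 204, 94 and 99 in that order. Leaving out 1 mouse took the 104 as low as 63, the 78 as low as 49 and the 258 as low as 166. With the methods' test after adjustment, the lower calls of allo-MCd against syngeneic mice became 1 of 9 ligands, 1 of 5 receptors, 1 of 4 homing genes and 0 of 4 type 17 genes, and the type 17 calls became 0 higher in allo-WT than syngeneic and 7 lower in allo-MCd than allo-WT mice. The 2 planned edgeR tests were not run, because the deposited columns, which mix scaled genes with raw control probes, were taken as a signal, and voom on the recovered counts was run instead. Low counts limit Ccr6, Ccl28 and Ccr9 most, and the small number of mice limits every comparison.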
